A study of Mus musculus with 6 samples.

Results

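The BCL2 family genes outside the direct p53 targets were followed in cell lines grown out of mouse liver tumors. Members were the rows of the deposited expression table carrying any of 10 gene symbols, a rule that uses no measured value. The symbols themselves were chosen with earlier results of these data known. All 10 were listed, among 20856 genes with values. By role they were the pro-survival genes *Bcl2*, *Bcl2l1* and *Mcl1*, the pore-forming or effector genes *Bak1* and *Bok*, and the BH3-only genes *Bcl2l11*, *Bid*, *Bad*, *Bik* and *Bmf*.

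RNA-seq covered 6 lines of C57BL/6 origin, each started in the liver by hydrodynamic injection of a *Myc* transposon with a Cas9 plasmid (px330) that carried a guide RNA. In 3 lines the guide was against *Trp53*, the gene of p53 (*Myc*; sg*Trp53*, labelled sgp53), and in the other 3 against *Kmt2c*, which encodes the histone methyltransferase MLL3 (*Myc*; sg*Kmt2c*, labelled sgMll3). The lines were untreated, were kept on collagen and were passaged until no fibroblasts could be seen. Every line carries the *Myc* transposon and no line has both *Trp53* and *Kmt2c* untargeted, so each value below is 1 targeted genotype against the other and not against normal liver. The *Kmt2c* edit can be heterozygous according to the study, which describes the lines of a genotype as independent and from different mice.

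BCL2 family proteins decide at the outer mitochondrial membrane whether a cell enters intrinsic apoptosis. The pro-survival proteins hold the effectors BAK and BAX in check, BH3-only proteins bind and block the pro-survival proteins or engage the effectors directly, and freed effectors open pores that release cytochrome c and so start caspase activation. *Bax*, *Bbc3* (PUMA) and *Pmaip1* (NOXA) are textbook targets of p53, whereas the genes described here are mostly governed by other transcription factors, by phosphorylation, by cleavage or by protein turnover. Cells with high MYC are prone to apoptosis, which is why this family is followed in MYC-driven tumors.

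Expression was given as RPKM, in which the reads of a gene are divided by 1 listed transcript length and scaled to all reads that the library has on genes. Undoing that division gave whole reads within a tolerance of 0.1 read for 100% of the non-zero values, and these reads are quoted below. The libraries held 5312182 to 6878625 reads on genes in the sg*Trp53* lines and 3680068 to 4704539 across the sg*Kmt2c* lines, and all 6 were run together in the same 2 lanes of 1 flow cell. *Trp53* itself lay at 17.2, 17.6 and 19.4 RPKM in sg*Trp53* replicates 1, 2 and 3 and at 92.2, 124 and 121 RPKM in sg*Kmt2c* replicates 1, 2 and 3 (log2 difference 2.56, limma adjusted p = 0.0140). *Kmt2c* lay at 24.2, 18.4 and 19.2 against 19.7, 25.0 and 9.51 RPKM (log2 difference -0.27, limma adjusted p = 0.819), so its RNA level did not separate the genotypes. The sg*Kmt2c* replicate 1 library stood apart from the rest: it was the highest or the lowest of the 6 in 59.4% of the genes tested, where the others were so in 20.2% to 35.7%. Members for which it is the highest or lowest line are given below with and without it. Gene coordinates are those of the deposited table (GRCm38). A log2 difference below is the mean log2(RPKM + 1) of the sg*Kmt2c* lines minus that of the sg*Trp53* lines, given where tested with its standard error (SE), its 95% confidence interval (CI) and the p-value of limma adjusted over all genes tested.

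The label of a liver tumor line was set against marker genes. The summed level of 6 genes listed as biliary or progenitor was 1670, 114 and 1400 RPKM in sg*Trp53* replicates 1 to 3 and 6205, 320 and 915 RPKM in sg*Kmt2c* replicates 1 to 3, and none of these genes was at 0 in any line. Keratins (*Krt8*, *Krt18*, *Krt19*) and *Spp1* carried these sums. *Epcam* lay at 0.369 to 27.0 RPKM and *Sox9* at 5.05 to 11.9 RPKM, so the sums say little about those 2 genes. The 5 hepatocyte markers summed to 27.9, 4.62 and 17.4 against 1209, 1.91 and 172 RPKM, of which the transcription factor *Hnf4a* gave 1186 RPKM in sg*Kmt2c* replicate 1. Marker sums depend on the listed lengths, which were not checked for the markers. *Hnf4a* is listed at 431 bases and the fibroblast marker *Col1a2* at 850, and a short listed length raises RPKM. *Alb* (albumin), the defining secreted product of hepatocytes, was at 4.36 RPKM or less in every line. The 7 fibroblast markers summed to 11.0, 995 and 282 RPKM against 0.282, 156 and 121 RPKM. *Col3a1* alone gave 814 RPKM in sg*Trp53* replicate 2, and 5 of the 7 markers were at 0 in sg*Kmt2c* replicate 1. The 7 immune markers summed to 46.8, 21.7 and 58.2 RPKM against 6.28, 5.51 and 15.2 RPKM, lower in every sg*Kmt2c* line, with the T cell gene *Cd3e* at 0 throughout. Much of this difference came from *Lyz2*, at 29.0, 17.1 and 45.3 against 0, 0.214 and 12.4 RPKM. *Csf1r* was also lower in every sg*Kmt2c* line. *Cd68* overlapped, and *Ptprc* had 2 reads or fewer in every line. The 4 endothelial markers summed to 0.284 RPKM or less. The part of these differences in the members' values was not tested. In such bulk RNA, fewer cells of a type and less RNA per cell cannot be told apart.

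The start regions of 4 genes are shown. *Bcl2l11* and *Mcl1* are the members whose genotypes did not overlap, *Bmf* is the member with a p53 decamer motif in its window, and *Bax* is shown as a p53 target for contrast. Each is the 250 bases before a RefSeq start (GRCm38.p6), printed 5′ to 3′ on the gene's strand, and capitals mark matches on either strand to the searched motifs. These were the GC box GGGCGG, the E-box CACGTG bound by MYC and MAX, the forkhead (FOXO) motif TGTTTAC, and the p53 decamer. The windows lie at chr2:128125788-128126037 on the plus strand for *Bcl2l11*, chr3:95658471-95658720 on the plus strand for *Mcl1*, chr2:118544588-118544837 on the minus strand for *Bmf*, and chr7:45466899-45467148 on the minus strand for *Bax*.
Bcl2l11: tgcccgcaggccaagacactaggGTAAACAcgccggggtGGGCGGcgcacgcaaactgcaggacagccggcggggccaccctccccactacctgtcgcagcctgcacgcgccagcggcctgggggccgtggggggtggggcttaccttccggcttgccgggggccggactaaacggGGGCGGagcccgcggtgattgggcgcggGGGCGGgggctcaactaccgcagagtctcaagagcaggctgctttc
Mcl1: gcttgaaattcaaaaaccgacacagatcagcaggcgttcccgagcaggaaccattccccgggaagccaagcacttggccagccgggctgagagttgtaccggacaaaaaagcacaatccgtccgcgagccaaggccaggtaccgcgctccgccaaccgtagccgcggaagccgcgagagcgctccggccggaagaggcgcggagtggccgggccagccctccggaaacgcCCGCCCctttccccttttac
Bmf: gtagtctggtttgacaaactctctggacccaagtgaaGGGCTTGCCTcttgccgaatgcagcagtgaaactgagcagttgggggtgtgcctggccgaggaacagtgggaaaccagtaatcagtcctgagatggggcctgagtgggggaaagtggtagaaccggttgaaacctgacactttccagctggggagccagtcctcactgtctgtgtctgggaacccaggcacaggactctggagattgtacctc
Bax: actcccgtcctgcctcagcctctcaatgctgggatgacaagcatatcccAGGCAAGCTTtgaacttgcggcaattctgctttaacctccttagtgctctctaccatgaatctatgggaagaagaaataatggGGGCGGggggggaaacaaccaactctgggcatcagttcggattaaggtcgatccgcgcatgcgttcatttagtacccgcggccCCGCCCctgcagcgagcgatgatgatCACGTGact

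RefSeq windows of 250 bases before to 50 after a start were given for 9 of the 10 members, 15 windows in all. The E-box was found in 0 of the 15, against 7.15% of 32851 promoters of the same length, while the *Bax* window held it. The forkhead motif was found in 1 window, that of *Bcl2l11* at 227 bases before the start, against 3.65% of all promoters. The GC box was found in 8 windows of 7 members, against 35.7% of all promoters. The p53 decamer was found in 1 window, at an inner start of *Bmf* that lies within the gene as listed, against 8.36% of all promoters. None of the searched motifs overlapped another in the printed windows. A match describes letters only, and the lack of one says nothing about whether the factor acts on the gene from elsewhere.

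*Bcl2l11*, which encodes BIM, and *Mcl1* lay lower in every sg*Kmt2c* line than in any sg*Trp53* line, at 0.429 and 0.792 of the sg*Trp53* mean. For the other 7 tested members the lines of the genotypes overlapped. Non-overlap was thus met by 2 of 9, against 16.2% of all 11617 genes tested and 10.4% in the lower direction. None of the members passed an adjusted p-value of 0.05 (0 of 9, limma), where 0.129% of all genes tested did so, 0.0516% as higher and 0.0775% as lower in the sg*Kmt2c* lines. At an unadjusted p-value under 0.05 the count was 1 of 9, *Bcl2l11*, against 8.58% of all genes tested. The median log2 difference was -0.08 over the 9 members and -0.09 over all genes tested. The members ran from -1.20 for *Bcl2l11* to 1.01 for *Bcl2l1*. Of them 4 were above 0 and 5 below, against 4878 above and 6739 below over all genes tested. The count of 9 leaves out *Bik*, which lay under the filter of 1 RPKM in at least 3 libraries.

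**Figure D1:**
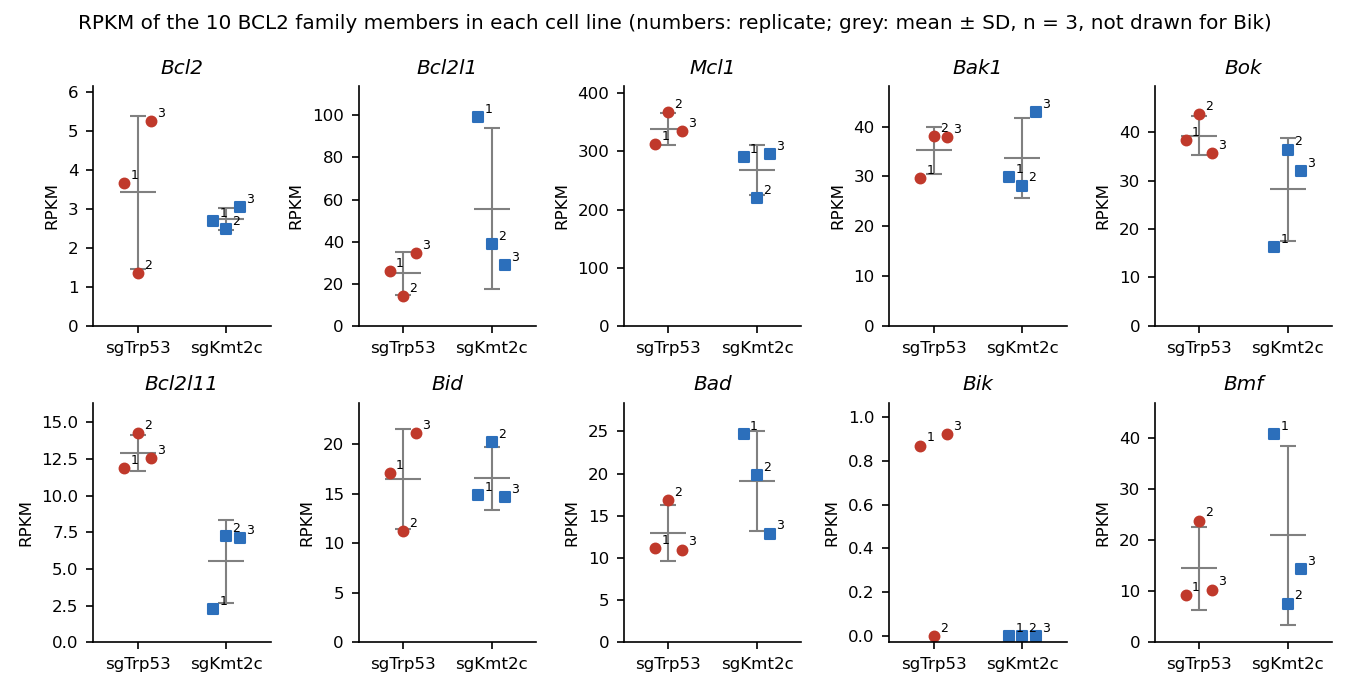
Levels of the 10 members in RPKM (vertical axis, linear, a scale per gene) in the 3 sg*Trp53* lines (red circles) and the 3 sg*Kmt2c* lines (blue squares), numbered by replicate, with the mean and SD (n = 3) in grey except for *Bik*. The genotypes separate only in the *Bcl2l11* and *Mcl1* panels, and sg*Kmt2c* replicate 1 is the extreme point for *Bcl2l1*, *Bok*, *Bcl2l11*, *Bad* and *Bmf*.

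*Mcl1* (chr3:95658788-95663176), whose protein is a short-lived guardian needed by many cells including hepatocytes, was the most abundant member in every line at the listed lengths. It lay at 312, 368 and 335 RPKM in sg*Trp53* replicates 1 to 3 and at 290, 219 and 295 RPKM in sg*Kmt2c* replicates 1 to 3, on 693 to 1980 reads. Every sg*Kmt2c* line was below every sg*Trp53* line, but the gap between the nearest lines was small beside the spread within the genotypes. Means were 338 ± 27.7 and 268 ± 42.3 RPKM (SD, n = 3 each), a log2 difference of -0.35 (SE 0.194, 95% CI -0.81 to 0.12, limma adjusted p = 0.651). With 3 lines against 3, the exact two-sided permutation test cannot go below 0.1, and it gave 0.1 for *Mcl1*.

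*Bcl2l1* (chr2:152780668-152831728) encodes BCL-XL, the other main guardian of hepatocytes. Its values were 25.9, 14.2 and 34.8 RPKM across the sg*Trp53* lines against 99.3, 38.8 and 29.0 RPKM across the sg*Kmt2c* lines. The genotypes overlapped, and sg*Kmt2c* replicate 1 alone was 3.48 times the mean of the other 5 lines. Means were 24.9 ± 10.3 and 55.7 ± 38.1 RPKM (SD, n = 3 each), a log2 difference of 1.01 (SE 0.521, 95% CI -0.23 to 2.26, limma adjusted p = 0.632). Without sg*Kmt2c* replicate 1 the log2 difference was 0.50.

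*Bcl2* (chr1:106538178-106714274), the founding member of the family, had the lowest mean of the 9 tested members in both genotypes. It lay at 3.67, 1.36 and 5.27 RPKM across the sg*Trp53* lines, against 2.69, 2.49 and 3.06 RPKM across the sg*Kmt2c* lines, on 52 to 261 reads. The sg*Kmt2c* values fell inside the range of the sg*Trp53* values. Its log2 difference came to -0.13 (SE 0.401, 95% CI -1.09 to 0.82, limma adjusted p = 0.925), and its sign turned without sg*Trp53* replicate 3 (0.17) and under quantile normalization (0.01).

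Of the effectors, *Bak1* was steady from line to line and *Bok* less so. *Bak1* (chr17:27019810-27029009), a pore-forming protein of the outer mitochondrial membrane, lay at 29.7, 38.1 and 37.9 RPKM across the sg*Trp53* lines, against 30.0, 28.2 and 42.9 RPKM across the sg*Kmt2c* lines. Its highest value was 1.52 times its lowest, the narrowest range of the 9, and its SD over the 6 lines stood at percentile 19.2 of all genes tested. Between the genotypes the log2 difference came to -0.08 (SE 0.233, 95% CI -0.63 to 0.48, limma adjusted p = 0.926). Larger differences in either direction lie outside that interval, and smaller ones could not be resolved.

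*Bok* (chr1:93685660-93695764), a relative of BAK and BAX that is degraded at the endoplasmic reticulum, lay at 38.4, 43.7 and 35.7 RPKM across the sg*Trp53* lines. It lay at 16.2, 36.4 and 32.0 RPKM across the sg*Kmt2c* lines. The genotypes overlapped through sg*Kmt2c* replicate 2, and replicate 1 was the lowest line at 0.435 of the mean of the other 5. The log2 difference came to -0.53 (SE 0.321, 95% CI -1.30 to 0.23, limma adjusted p = 0.670), and -0.19 without that line.

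*Bcl2l11* (chr2:128126038-128162547) encodes BIM, a BH3-only protein that binds all the main pro-survival proteins and is known as a forkhead target. It lay at 11.9, 14.3 and 12.6 RPKM in sg*Trp53* replicates 1 to 3, on 365, 382 and 436 reads. In sg*Kmt2c* replicates 1 to 3 it lay at 2.28, 7.22 and 7.11 RPKM, on 54, 134 and 153 reads. All 3 sg*Kmt2c* lines were below all 3 sg*Trp53* lines, and the sg*Trp53* values were close together. Means were 12.9 ± 1.22 and 5.53 ± 2.82 RPKM (SD, n = 3 each), a ratio of 0.429. On the log2 scale the difference was -1.20 (SE 0.398, 95% CI -2.15 to -0.25), with an unadjusted p = 0.0205 and an adjusted p = 0.496 (limma), and the gene was number 479 of 11617 genes by p-value. The exact permutation p was 0.1, the smallest possible here. Replicate 1 was 0.215 of the mean of the other 5 lines, and without it the ratio of means was 0.555 and the log2 difference -0.76.

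*Bid* (chr6:120891930-120916853), which links death receptors to mitochondria once caspase-8 has cut it, had nearly equal means. It lay at 17.1, 11.2 and 21.2 RPKM across the sg*Trp53* lines, against 14.9, 20.2 and 14.6 RPKM across the sg*Kmt2c* lines. Its log2 difference came to 0.03 (SE 0.286, 95% CI -0.65 to 0.72, limma adjusted p = 0.974), and it was negative without sg*Trp53* replicate 2 (-0.20) or without sg*Kmt2c* replicate 2 (-0.11).

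*Bad* (chr19:6941861-6951898), which growth factor signals inactivate by phosphorylation, lay at 11.2, 16.8 and 11.0 RPKM across the sg*Trp53* lines, against 24.7, 19.8 and 12.9 RPKM across the sg*Kmt2c* lines. The genotypes overlapped through sg*Kmt2c* replicate 3. Between the genotypes the log2 difference came to 0.50 (SE 0.306, 95% CI -0.23 to 1.24, limma adjusted p = 0.674), and 0.31 without sg*Kmt2c* replicate 1.

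*Bmf* (chr2:118528757-118549687), whose protein is tethered to the cytoskeleton, was among the members that varied most between lines of a genotype. It lay at 9.25, 23.8 and 10.3 RPKM across the sg*Trp53* lines, against 40.8, 7.60 and 14.4 RPKM across the sg*Kmt2c* lines. Both the highest and the lowest line were of the sg*Kmt2c* genotype. The log2 difference came to 0.31 (SE 0.630, 95% CI -1.19 to 1.82, limma adjusted p = 0.885), and -0.31 without sg*Kmt2c* replicate 1.

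*Bik* (chr15:83526862-83544635), a BH3-only gene of the endoplasmic reticulum, was at the limit of detection. The sg*Trp53* libraries gave 5, 0 and 6 reads for it, or 0.869, 0 and 0.923 RPKM. There were 0 reads in each sg*Kmt2c* line, which allows up to 0.676, 0.864 and 0.745 RPKM at 3 reads per library. The values of sg*Trp53* replicates 1 and 3 lie above these limits, but sg*Trp53* replicate 2 also had 0 reads. With so few reads, a difference between the genotypes could not be settled at this depth.

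**Figure D2:**
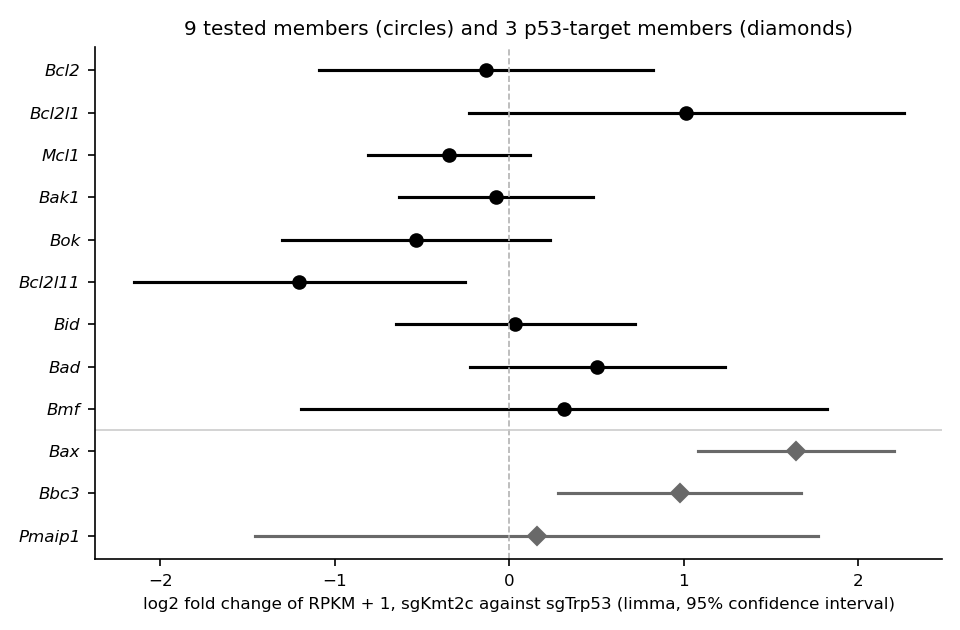
Log2 difference of RPKM + 1, sg*Kmt2c* minus sg*Trp53* (horizontal axis), with the 95% confidence interval from limma, for the 9 tested members (black circles) and the 3 p53-target members of the family (grey diamonds). Among the members only the interval of *Bcl2l11* leaves out 0, and *Bax* and *Bbc3* lie to the right of 0 with intervals that leave it out.

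The p53-target genes of the same family gave a scale for these values. *Bax* lay at 68.9, 44.6 and 65.1 RPKM across the sg*Trp53* lines against 170, 167 and 222 RPKM across the sg*Kmt2c* lines, a log2 difference of 1.64 (SE 0.235, limma adjusted p = 0.0953). *Bbc3* lay at 17.5, 10.9 and 9.60 against 19.5, 27.5 and 29.3 RPKM, a log2 difference of 0.98 (limma adjusted p = 0.450). Both were higher in every sg*Kmt2c* line, a pattern met by 5.72% of all genes tested and by 0 of the 9 members. *Pmaip1* overlapped, at 11.0, 2.56 and 15.5 against 17.8, 4.92 and 7.78 RPKM (log2 difference 0.16, limma adjusted p = 0.948). The difference between the members and these 3 genes was not itself tested.

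The spread between lines differed by member. The highest of the 6 values was 7.02 times the lowest for *Bcl2l1*, 6.27 times for *Bcl2l11* and 5.37 times for *Bmf*. The SD of log2(RPKM + 1) over the 6 lines put these 3 at percentiles 86.2, 84.0 and 85.5 of all genes tested. *Mcl1* (percentile 21.7), *Bak1* (19.2) and *Bid* (36.3) were at the steady end, and *Bad*, *Bcl2* and *Bok* lay between (57.8 to 63.1). Within the genotypes alone, the SD stood at percentile 84.6 for *Bcl2l1*, 89.2 for *Bmf* and 71.3 for *Bcl2l11*, against 12.1 for *Mcl1*. The sg*Kmt2c* replicate 1 line was the highest of the 6 for *Bcl2l1*, *Bmf* and *Bad* and the lowest for *Bok* and *Bcl2l11*, 5 of the 9. The sg*Trp53* replicate 2 line was the highest or lowest for 6 of the 9, against 35.7% of all genes tested. Fibroblast markers summed highest in that line, where *Col3a1* alone gave 814 RPKM. *Col1a1*, *Acta2* and *Thy1* were lower there than in sg*Trp53* replicate 3, and *Col1a2*, *Pdgfra* and *Pdgfrb* were higher. The sum was lowest in sg*Kmt2c* replicate 1. The part of these markers in the members' values was not tested.

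**Figure D3:**
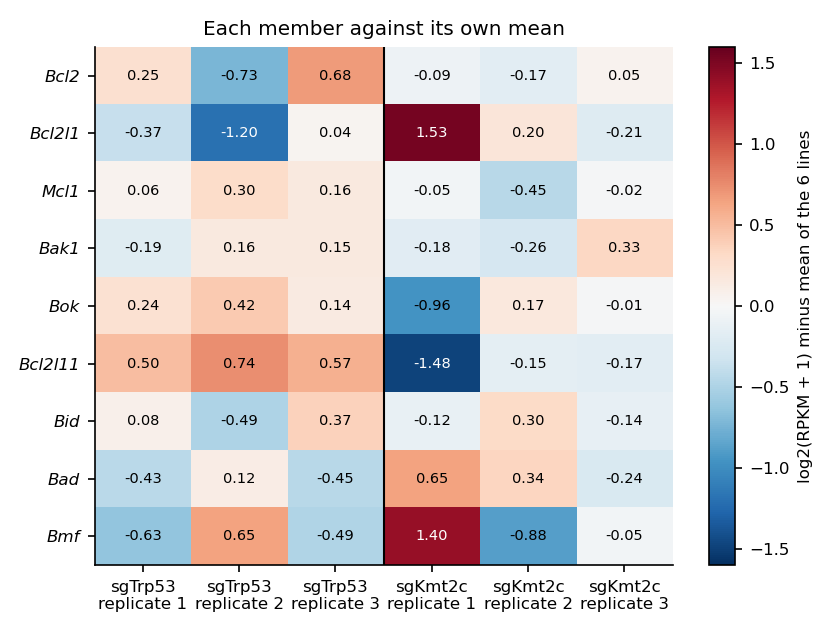
Each cell is the log2(RPKM + 1) of a member (row) in a line (column) minus the mean of that member over the 6 lines, with the value printed and red above and blue below the mean. The column of sg*Kmt2c* replicate 1 holds the strongest colors, from 1.53 for *Bcl2l1* to -1.48 for *Bcl2l11*, and only the rows of *Bcl2l11* and *Mcl1* have 1 sign in all sg*Trp53* lines and the other in all sg*Kmt2c* lines.

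In the sg*Trp53* lines the order of mean levels per length was *Mcl1*, *Bok*, *Bak1*, *Bcl2l1*, *Bid*, *Bmf*, *Bad*, *Bcl2l11*, *Bcl2* and *Bik*. In the sg*Kmt2c* lines it was *Mcl1*, *Bcl2l1*, *Bak1*, *Bok*, *Bmf*, *Bad*, *Bid*, *Bcl2l11*, *Bcl2* and *Bik*. The ranges of most neighbours in these orders overlapped. In both genotypes *Mcl1* stood clear above the next gene, and *Bcl2* clear above *Bik*. *Bcl2l11* was clear of *Bcl2* below it in the sg*Trp53* lines only, and clear of *Bid* above it in the sg*Kmt2c* lines only. The distance of *Mcl1* from the rest depends on its length, since the table lists 858 bases for it where the sole protein-coding transcript of GENCODE M1 has 3485. With the latter its RPKM is 4.06 times lower in every line, and fold changes between lines stay as they are. The listed length equals the longest GENCODE M1 transcript for 8 of the 10 members, the other exception being *Bok* (1468 against 1432 bases).

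Summed RPKM of the 3 pro-survival members was set against that of the 7 effector and BH3-only members to describe their balance. Family genes outside the members are left out, among them *Bax*, with means of 59.5 and 186 RPKM in the sg*Trp53* and sg*Kmt2c* lines. The effector members summed to means of 74.5 and 61.9 RPKM. The ratio therefore does not give the balance of the whole family. The ratio was 2.89, 2.59 and 2.89 across the sg*Trp53* lines and 3.04, 2.18 and 2.64 across the sg*Kmt2c* lines. Means were 2.79 ± 0.174 and 2.62 ± 0.432 (SD, n = 3 each), and the genotypes overlapped. With the longest GENCODE M1 transcript as the length of each gene, the ratio was 0.892, 0.712 and 0.939 against 1.34, 0.792 and 0.839, so whether pro-survival RNA exceeds the rest turns on the length given to *Mcl1*. *Mcl1* made up 91.4%, 96.0% and 89.3% of the pro-survival sum in the sg*Trp53* lines and 74.0%, 84.1% and 90.2% across the sg*Kmt2c* lines. With the longer length these shares were 72.2%, 85.4% and 67.3% against 41.2%, 56.6% and 69.3%. In sg*Kmt2c* replicate 1 *Bcl2l1* then led the pro-survival genes, with 57.3% of their sum.

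Within the 5 BH3-only members, *Bcl2l11* made up 23.6%, 21.6% and 22.5% of the summed RPKM across the sg*Trp53* lines. Its share was 2.75%, 13.2% and 14.5% across the sg*Kmt2c* lines, without overlap. *Bbc3*, *Pmaip1* and *Hrk*, which lie outside the members, are left out of these sums. *Hrk* lay at 83.8, 14.5 and 31.2 RPKM against 6.90, 0 and 21.7 RPKM. The shares and their separation therefore hold for the members only. Among the 5 BH3-only members, the leading gene was *Bid* in 4 of the lines and *Bmf* in sg*Trp53* replicate 2 and sg*Kmt2c* replicate 1. The summed level of the 5 BH3-only genes was 57.5 ± 8.01 RPKM across the sg*Trp53* lines and 62.2 ± 18.0 RPKM across the sg*Kmt2c* lines (SD, n = 3 each).

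**Figure D4:**
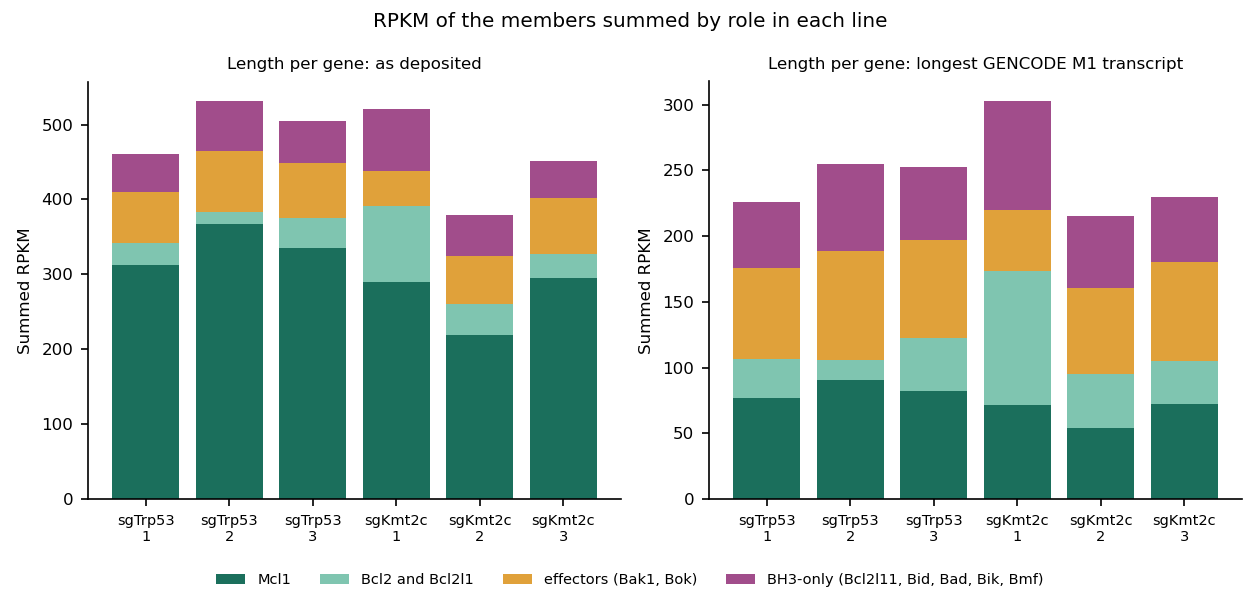
Summed RPKM (vertical axis, from 0) of *Mcl1* (dark green), *Bcl2* with *Bcl2l1* (light green), the effectors (orange) and the BH3-only genes (purple) in each of the 6 lines, with the deposited transcript lengths on the left and the longest GENCODE M1 transcript per gene on the right. *Mcl1* is the tallest block in every line on the left, and on the right only in the 3 sg*Trp53* lines. Only members are summed, so *Bax* and the other family genes outside the members are left out.

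Ratios between members within a line do not depend on the scaling of the library, and a length cancels when lines are compared. Of the 36 ratios among the 9 tested members, 8 did not overlap between the genotypes (22.2%), against 16.0% of the ratios of all pairs of genes tested. Of these 8, 6 had *Bcl2l11* as a term and share its values. As *Bcl2l11* was itself lower in every sg*Kmt2c* line, these 6 are not results apart from it. *Mcl1* over *Bcl2l11* was 26.3, 25.8 and 26.7 across the sg*Trp53* lines and 127, 30.4 and 41.5 across the sg*Kmt2c* lines. *Bcl2l1* over *Bcl2l11* was 2.18, 0.993 and 2.77 against 43.6, 5.38 and 4.09. *Mcl1* and *Bcl2l1* were thus higher relative to BIM RNA in each sg*Kmt2c* line, and *Bcl2* over *Bcl2l11* overlapped (0.309, 0.0953 and 0.419 against 1.18, 0.345 and 0.430).

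*Bak1* over *Bcl2l11* was 2.50, 2.67 and 3.01 against 13.2, 3.90 and 6.04, and *Bok* over *Bcl2l11* was 3.23, 3.06 and 2.84 against 7.12, 5.04 and 4.51. *Bid* over *Bcl2l11* was 1.44, 0.786 and 1.68 against 6.53, 2.80 and 2.06, and *Bad* over *Bcl2l11* was 0.941, 1.18 and 0.876 against 10.9, 2.75 and 1.81. All of these were higher in each sg*Kmt2c* line, and replicate 1 was the highest in every case. The other non-overlapping ratios were *Bcl2l1* over *Bid* (1.51, 1.26 and 1.64 against 6.69, 1.92 and 1.99) and *Bok* over *Bad* (3.43, 2.59 and 3.24 against 0.655, 1.84 and 2.48).

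**Figure D5:**
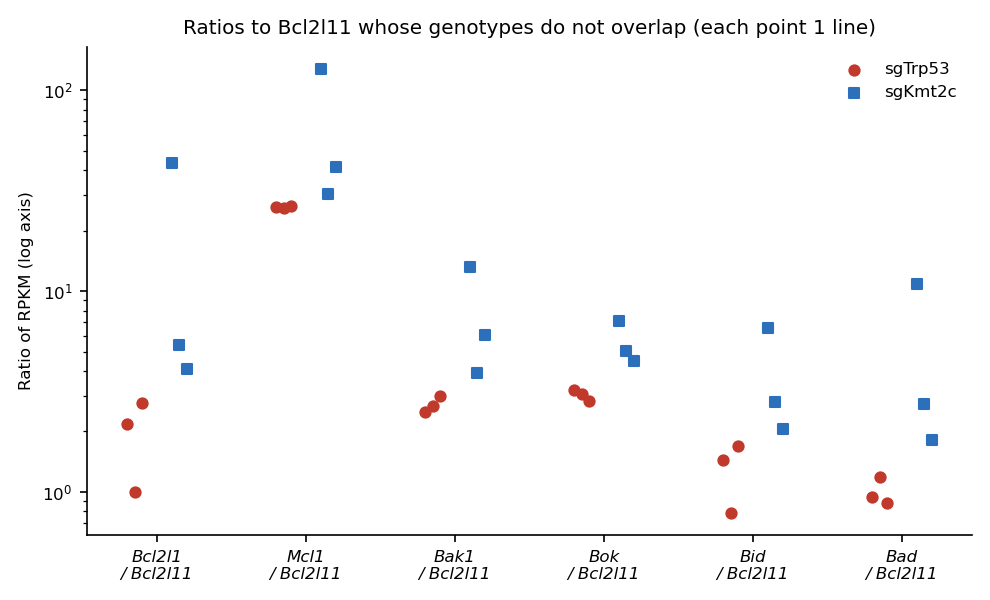
Ratio of the RPKM of 6 members to that of *Bcl2l11* (vertical axis, logarithmic) in each sg*Trp53* line (red circles) and sg*Kmt2c* line (blue squares), for the ratios whose genotypes do not overlap. The *Mcl1* ratio runs from 25.8 to 26.7 across the sg*Trp53* lines and from 30.4 to 127 across the sg*Kmt2c* lines.

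Genes that act around these members were taken from lists by pathway step. Of 12 further BCL2 family genes, 6 could be tested and 0 passed an adjusted p-value of 0.05 (limma). Of these 6, 0 were without overlap, against 16.2% of all genes tested, and the median log2 difference was -0.22. The widest difference was that of the BH3-only gene *Hrk*, at 83.8, 14.5 and 31.2 RPKM against 6.90, 0 and 21.7 RPKM (log2 difference -2.63, limma adjusted p = 0.597). *Bcl2l2*, which encodes the guardian BCL-W, had means of 9.07 ± 2.06 and 13.4 ± 4.81 RPKM (SD, n = 3 each, log2 difference 0.47, limma adjusted p = 0.712), and 0.26 without sg*Kmt2c* replicate 1.

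Downstream of the pores, all 14 apoptosome and caspase genes could be tested and 0 passed (limma). A log2 difference below 0 was seen in 10 of the 14, against 6739 of all 11617 genes tested. The medians were -0.17 for the list and -0.09 for all genes tested. Genotypes did not overlap for 2 of the 14, against 16.2% of all genes tested. These were *Casp9*, the initiator caspase of the apoptosome, at 14.9, 12.6 and 10.5 against 8.38, 8.83 and 10.2 RPKM, and *Diablo*, whose protein frees caspases from their inhibitors, with means of 13.1 ± 0.809 against 9.40 ± 1.35 RPKM (SD, n = 3 each). Their log2 differences were -0.42 (adjusted p = 0.639) and -0.45 (adjusted p = 0.608, both from limma). The range of the list ran from -0.86 for *Dffa* to 0.45 for *Casp8*, which were at -0.34 and -0.012 without sg*Kmt2c* replicate 1.

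Of the 5 inhibitor of apoptosis genes, 0 passed (limma) and the median log2 difference was 0.0014. Genotypes did not overlap for 1 of the 5, against 16.2% of all genes tested. This was *Xiap*, a direct caspase inhibitor. It lay at 43.3, 34.7 and 49.0 RPKM against 172, 56.7 and 56.1 RPKM (log2 difference 0.95, limma adjusted p = 0.608), and sg*Kmt2c* replicate 1 was again the extreme line. Without it the log2 difference was 0.42, and both other sg*Kmt2c* lines lay above every sg*Trp53* line. Of 12 partners and regulators of the members, 0 passed (limma), with a median log2 difference of 0.08. Genotypes did not overlap for 2 of the 12, against 16.2% of all genes tested. *Fbxw7*, part of a ubiquitin ligase that marks MCL1 for degradation, lay at 7.44, 10.5 and 8.05 against 6.07, 4.79 and 4.92 RPKM without overlap (log2 difference -0.62, unadjusted p = 0.0384, limma adjusted p = 0.567). *Itpr3*, a calcium channel on which BCL2 proteins act, lay at 34.6, 12.4 and 22.7 against 54.7, 77.7 and 32.7 RPKM with overlap (log2 difference 1.24, unadjusted p = 0.0300, limma adjusted p = 0.542).

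*Dynll1*, a dynein light chain known to hold BIM, was the remaining partner without overlap, at 69.9, 68.6 and 79.5 against 59.3, 59.7 and 66.8 RPKM (log2 difference -0.23, limma adjusted p = 0.717). The forkhead factor *Foxo3* lay at 19.1, 21.6 and 15.3 against 16.2, 30.3 and 22.4 RPKM and overlapped (log2 difference 0.26, limma adjusted p = 0.781). The stress factor *Ddit3* (CHOP), also known to act on *Bcl2l11*, stood at 60.8 RPKM in sg*Kmt2c* replicate 1 and at 9.46 to 12.4 RPKM in the other 5 lines.

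Because use of strand in counting is not stated, members that overlap another RefSeq gene are less certain. Protein-coding neighbours overlap *Bcl2l1* (*Cox4i2*), *Bak1* (*Ggnbp1*), *Bcl2l11* (*Acoxl*) and *Bad* (*Gpr137*), and *Bcl2*, *Bid* and *Bik* overlap noncoding genes or pseudogenes. No RefSeq gene overlaps *Mcl1*, *Bok* or *Bmf*.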

How the data were processed

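Lines were grouped by the genotype and numbered by the replicate in their labels. The authors trimmed reads with Trimmomatic, aligned them to GRCm38 with STAR and counted them per gene with HTSeq (versions not given in the sources used here), and deposited RPKM values, which the methods of the study call FPKM. Of 21065 rows, 209 carry no values, and 6 columns that belong to other samples were not used. The deposited table of the authors' DESeq2 1.8.2 comparison (mean normalized count, log2 fold change with error, statistic, p-values) was not used.

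Log2(RPKM + 1) of the 11617 genes at 1 RPKM or more in at least 3 of the 6 libraries was fitted with limma 3.58.1 (R 4.3.3, lmFit and eBayes, trend on), with Benjamini-Hochberg adjustment and genotype as the only term. The pseudocount of 1 understates changes of low genes. The plan held a count test for raw counts and this test for RPKM. Lines of 1 genotype were no copies of each other (mean chi-square per gene 29.4 to 85.8), and p-values measure the spread between these lines only. In a check on simulated data the test recovered few changes as small as the differences of the members, so a member that did not pass is not shown to be alike in both genotypes. Limits of 3 reads cover counting error only.

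The members and lists were chosen with earlier results of these data known. All members are named, and from the lists those past the threshold, those without overlap among the 3 widest changes and those that give a range. *Casp9*, *Diablo*, *Fbxw7*, *Dynll1*, *Foxo3*, *Ddit3* and the single marker genes fall outside that rule and were named after their values were seen. Genes most alike in pattern were not searched for, since the members form a family of 10.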

Additional observations from a re-analysis of the deposited data

How the results depend on the processing

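The count of members past an adjusted p-value of 0.05 was 0 under all 17 alternatives. These changed the pseudocount, the filter, the scaling, the moderation, the test, a replicate block or the lines used. Another counted sg*Kmt2c* replicates 2 and 3, whose line names begin alike, as 1 sample. Over all genes tested, 0 also passed with the block, with that 1 sample, and without any single line except sg*Kmt2c* replicate 1. A count of 0 members was fixed there. Under the other alternatives 4 to 20 of all genes tested passed (limma). The lowest adjusted p of a member was 0.320 (*Bcl2l11* without sg*Kmt2c* replicate 3, limma). *Bcl2l11* was below 0 under each of the 17 alternatives, from -1.43 to -0.76. Its unadjusted p (limma) was above 0.05 only without sg*Trp53* replicate 2 or sg*Trp53* replicate 3. Without sg*Kmt2c* replicate 3, *Bcl2l1* and *Bad* also had an unadjusted p under 0.05 (3 of 9 members, limma). In that setting 1477 of all 11617 genes tested did so, against 997 in the main fit. The median of the members ran from -0.20 to 0.15 when single lines were left out.

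Of 153 values for single members, 147 kept their direction and 6 turned. *Bcl2* turned under quantile normalization (0.011) and without sg*Trp53* replicate 3 (0.17; range -0.53 to 0.17). *Bid* turned without sg*Trp53* replicate 2 (-0.20) and without sg*Kmt2c* replicate 2 (-0.11), with a range of -0.20 to 0.23. *Bmf* turned without sg*Kmt2c* replicate 1 (-0.31; range -0.31 to 0.83) and *Bak1* without sg*Kmt2c* replicate 2 (0.035; range -0.26 to 0.035).

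The count over all genes was 15 and moved to 6 at a pseudocount of 0.1, to 5 with no filter, to 4 with limma voom on the recovered reads, and to 0 (1053 at an unadjusted p under 0.05, limma) with sg*Kmt2c* replicates 2 and 3 as 1 sample. It was 0 to 8 when a line was left out, with 8 without sg*Kmt2c* replicate 1 and 0 without any of the other 5 (563 to 1477 at an unadjusted p under 0.05, limma). The cause was not tested beyond the loss of a sample. With the replicate block 0 genes and 0 members passed (1085 genes and *Bcl2l11* at an unadjusted p under 0.05, limma). Deviations of same-numbered lines correlated at 0.192, 0.399 and 0.0316 over genes for replicates 1, 2 and 3. Lines with unlike numbers correlated at -0.284 to 0.152. The same-numbered line was the best partner of sg*Kmt2c* replicates 1 and 2, whereas replicate 3 correlated best with sg*Trp53* replicate 1 (0.0519). These values do not settle whether the numbers pair the lines.

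The share of *Mcl1* in the pro-survival sum, 92.2% and 82.8%, was 75.0% in the sg*Trp53* lines and 55.7% in the sg*Kmt2c* lines with the longest GENCODE M1 transcript, an alternative chosen after the listed length was seen. The ratio of pro-survival to other members then was 0.848 and 0.991 in place of 2.79 and 2.62. With single lines left out the shares were 90.3% to 93.7% and 79.1% to 87.2%, and the ratios 2.74 to 2.89 and 2.41 to 2.84. *Bik* had the fewest reads of the members, at 6 or fewer in every line. The lowest counts of *Bcl2* and *Bcl2l11* were 52 and 54 reads. Every sg*Kmt2c* library was shallower than every sg*Trp53* library, and the effect of depth on the members was not tested.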
